A study of Mus musculus with 12 samples.

Results

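The PARP family and Dtx3l were followed in CD8α+-like dendritic cells, the culture counterpart of the conventional type 1 dendritic cell, on 12 arrays. Members were 10 named genes, each read from the row of the deposited table that carries its symbol alone, and the brightest such row where there were several. Of the 10 genes, 9 were found among the 14807 genes with a single-symbol row: Parp1, Parp2, Parp3, Parp8, Parp9, Parp11, Parp12, Parp14 and Dtx3l, with 1 row each. Parp10 had only a row that also names Plec, so it was not counted and that row is described apart. The cells were grown from C57BL/6 mouse bone marrow in 10 days of culture with 100 ng/ml of Flt3 ligand, then sorted as CD24-high, CD11b-low and B220-negative. There were 4 groups of 3 arrays: wild type (WT) or Clec9a gfp/gfp mice, which lack the dead cell receptor DNGR-1, each either untreated (labelled 0 h) or kept for 5 h with dead cells. Death had been induced by UVC (240 mJ/cm2) followed by 24 h in culture, and the labels used here do not name their type. No untreated cells kept for 5 h were analysed here, so the effects of dead cells and of time in culture cannot be told apart. Separate cultures or animals behind the replicates are not stated in the labels, and the p-values cover the spread among these arrays alone, which may be technical.

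PARP proteins use NAD+ to attach ADP-ribose to proteins, as chains in the case of Parp1 and Parp2 and as single units in the case of most other active members. Parp1, Parp2 and Parp3 are known as nuclear enzymes that respond to DNA breaks, whereas Parp9, Parp10, Parp11, Parp12 and Parp14 are known from work on interferon and antiviral responses. Dtx3l is an E3 ubiquitin ligase of the Deltex family that forms a complex with Parp9. The interferon-stimulated response element (ISRE) and the gamma-activated site (GAS) are short DNA elements known from the promoters of genes that respond to type I interferon and to interferon gamma.

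The start regions of the members are shown first, because the members moved in opposite directions and 3 of them lie side by side. RefSeq windows (GRCm38.p6, 250 bases before to 50 bases after an annotated start) matched 7 of the 10 genes, with 8 windows in all since Parp11 has more than 1 start. Parp9, Parp10 and Parp14 had no window and were not searched, so of the 3 genes that lie side by side only Dtx3l was searched. The upstream window of Parp11 and the windows of Dtx3l, Parp3 and Parp1 are printed 5′ to 3′ on the strand of the gene. Capitals mark bases that match the ISRE letters (GAAA, any 2 bases, GAAA) or the GAS letters (TTC, any 3 bases, GAA) on either strand.
Parp11 chr6:127446590-127446889 plus strand: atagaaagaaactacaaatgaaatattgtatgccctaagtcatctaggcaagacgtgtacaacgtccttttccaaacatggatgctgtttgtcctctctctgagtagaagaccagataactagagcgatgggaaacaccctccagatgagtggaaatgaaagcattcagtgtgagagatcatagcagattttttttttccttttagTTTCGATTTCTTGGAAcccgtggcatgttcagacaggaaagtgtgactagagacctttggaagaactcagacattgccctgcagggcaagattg
Dtx3l chr16:35938978-35939277 minus strand: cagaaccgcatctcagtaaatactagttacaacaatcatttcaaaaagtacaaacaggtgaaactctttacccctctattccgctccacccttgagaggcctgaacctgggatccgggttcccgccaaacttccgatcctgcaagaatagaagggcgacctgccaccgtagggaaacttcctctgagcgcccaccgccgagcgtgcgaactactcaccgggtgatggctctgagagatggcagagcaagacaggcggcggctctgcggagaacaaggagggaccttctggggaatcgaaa
Parp3 chr9:106476900-106477199 minus strand: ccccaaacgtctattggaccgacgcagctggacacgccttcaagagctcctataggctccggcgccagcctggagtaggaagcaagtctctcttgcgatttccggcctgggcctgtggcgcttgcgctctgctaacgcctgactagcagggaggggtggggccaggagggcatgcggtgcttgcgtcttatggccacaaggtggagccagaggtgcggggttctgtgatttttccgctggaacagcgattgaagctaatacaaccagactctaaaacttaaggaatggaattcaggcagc
Parp1 chr1:180568641-180568940 plus strand: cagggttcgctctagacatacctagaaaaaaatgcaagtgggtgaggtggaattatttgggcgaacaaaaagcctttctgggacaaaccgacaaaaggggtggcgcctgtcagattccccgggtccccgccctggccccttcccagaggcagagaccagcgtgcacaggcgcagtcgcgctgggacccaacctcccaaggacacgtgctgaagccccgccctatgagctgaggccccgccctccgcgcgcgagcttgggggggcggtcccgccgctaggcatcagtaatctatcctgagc

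Of the 8 windows, 1 held a match, the upstream window of Parp11. Its ISRE match read TTTCGATTTC on the gene's strand, at bases 207 to 216 of the window, and its GAS match read TTCTTGGAA at bases 214 to 222, so the matches overlap. Among all 32851 windows in the table, 3.44% held the ISRE letters and 8.30% the GAS letters. The E2F letters TTTCGCGC (0.323% of all windows) and TTTGGCGC (0.514%) and the NF-kB letters (GGGA, any 2 bases, TTCC, 1.47%) were searched on both strands too and were in none of the members' windows. A match here is a description of letters, and its absence says only that they are not in this window.

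Array medians of intensity lay at 93.6 to 101 without dead cells (6 arrays) and at 77.9 to 85.9 with them (6 arrays). All 9 members were brighter than the pseudocount of 16 on all 12 arrays, with a lowest value of 90.5. Clec9a, the targeted gene, had a mean of 2625 ± 38.3 (SD, n = 3) on untreated WT arrays, against 2.68 ± 2.32 (SD, n = 3) on untreated Clec9a gfp/gfp arrays. Of 9 measured cDC1 markers, Xcr1 read 3336 and Irf8 8822 in untreated WT cells (means of 3 arrays), and none was below 16 on every array. Changes are differences of log2(intensity + 16), dead cells minus untreated, from 1 limma fit to all rows. Calls were made at adjusted p under 0.05 (Benjamini-Hochberg, over all 23238 rows). In WT cells 14.5% of all rows were called higher and 31.0% lower, and in Clec9a gfp/gfp cells 16.6% and 32.1%. With quantile normalization the split in WT cells was 6276 rows higher and 5633 lower, against 3368 and 7213 on the deposited scale, and in Clec9a gfp/gfp cells 6622 and 5645 against 3856 and 7457.

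With dead cells, all 5 measured interferon-inducible members rose in both genotypes, and the DNA repair members divided. Parp1 and Parp2 fell, while Parp3 rose. Parp8, which belongs to neither set, fell slightly, and several alternatives given below lost that call. In each genotype 6 of 9 members were called higher and 3 of 9 lower. Of all rows, 14.5% were called higher and 31.0% lower in WT cells, and 16.6% and 32.1% in Clec9a gfp/gfp cells. The share of members called lower was thus near that of all rows. For each of the 9 members, the 3 arrays with dead cells did not overlap the 3 untreated arrays. Such separation held for 54.9% of all rows in WT cells and 56.0% in Clec9a gfp/gfp cells. The median change of the interferon-inducible members was 1.84 in WT and 1.89 in Clec9a gfp/gfp cells, against -0.04 and -0.05 over all rows. Among the DNA repair members it was -1.95 and -1.94.

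**Figure D1:**
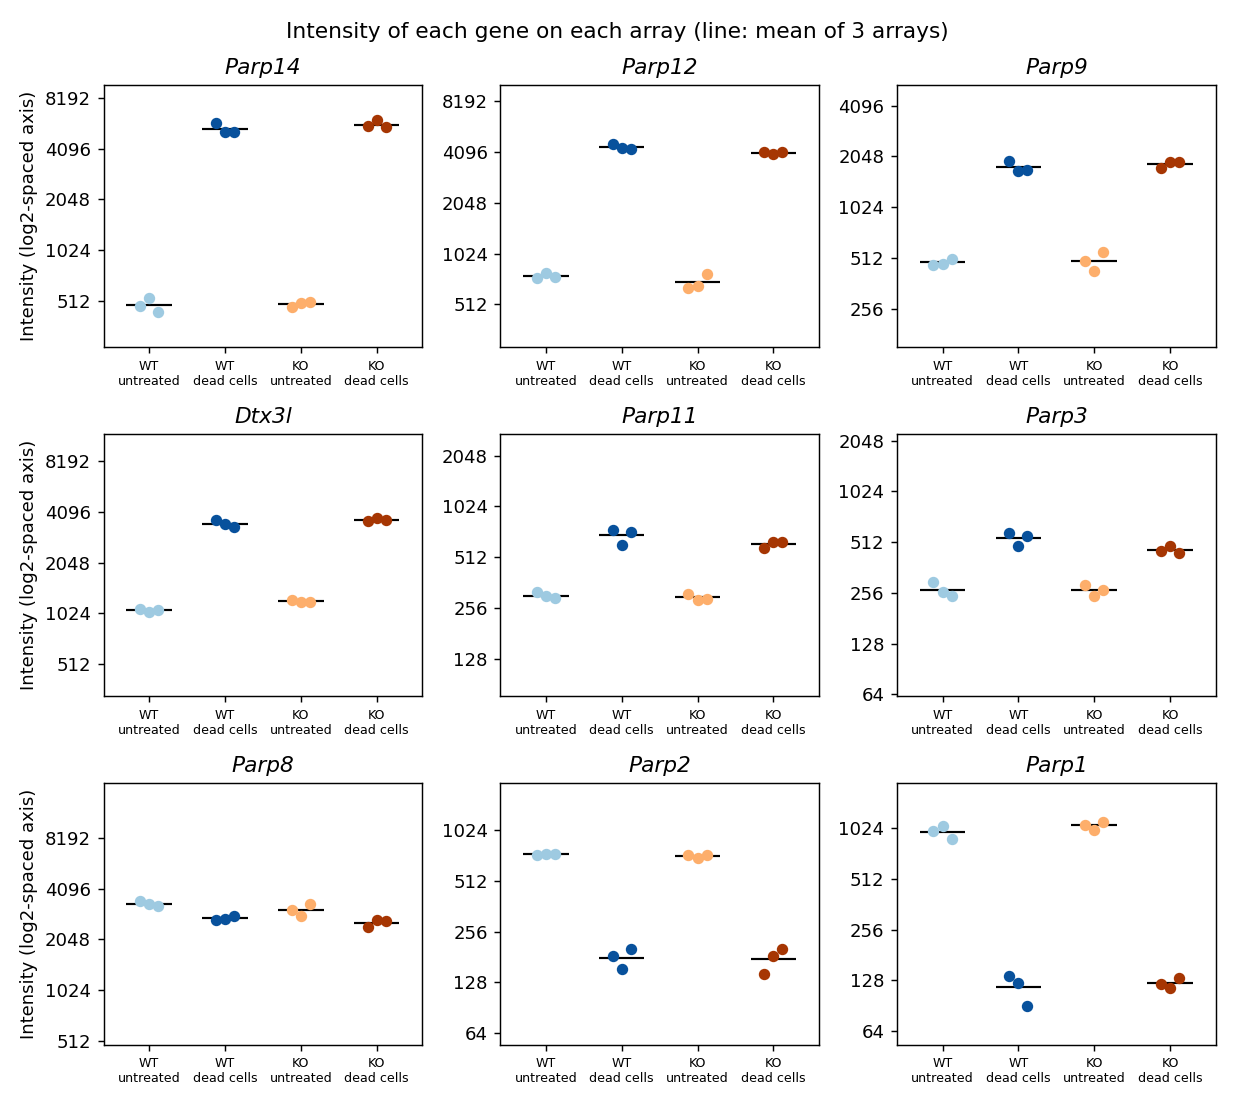
Intensity (y axis, log2-spaced, the same fold range in each panel) of the 9 measured members on each array by group (x axis, 3 arrays a group), with a line at each group's mean. Points with dead cells lie above the untreated points for Parp14, Parp12, Parp9, Dtx3l, Parp11 and Parp3 and below them for Parp8, Parp2 and Parp1, in WT and in Clec9a gfp/gfp (KO) cells.

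Parp14, a mono-ADP-ribosyltransferase with macrodomains that is also known as a cofactor of Stat6, had the largest rise of the members. Its intensity was 476, 531 and 441 on the untreated WT arrays and 5785, 5125 and 5149 on the WT arrays with dead cells. On the Clec9a gfp/gfp arrays it read 468, 496 and 505 untreated and 5558, 6039.7 and 5490.3 with dead cells. The groups with dead cells were an order of magnitude above the untreated groups, and the genotypes overlapped within each treatment. The log2 change was 3.43 ± 0.09 (SE, adjusted p = 2.57e-09 in limma) in WT and 3.50 ± 0.09 (adjusted p = 2.83e-09) in Clec9a gfp/gfp cells, the 79th and 63rd highest of all 23238 rows.

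Parp12, a mono-ADP-ribosyltransferase with CCCH zinc fingers that is known for antiviral activity, was next. Untreated WT arrays read 738, 784 and 743 and WT arrays with dead cells 4557, 4332 and 4295. The Clec9a gfp/gfp arrays read 642, 659 and 779 untreated and 4099.6, 3980.4 and 4103 with dead cells. The untreated groups overlapped, whereas with dead cells every Clec9a gfp/gfp array lay below every WT array, by less than the change with dead cells. With dead cells the genotypes stood apart, in either direction, for 8.65% of all rows. Its log2 change was 2.52 ± 0.09 (SE, adjusted p = 6.23e-09 in limma) in WT and 2.53 ± 0.09 (6.60e-09) in Clec9a gfp/gfp cells, a ratio of mean intensities of 5.82 and 5.86.

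Parp9, a macrodomain protein of the family, and Dtx3l, its ligase partner, rose by similar amounts. Parp9 read 463, 472 and 507 in untreated WT cells and 1926, 1672 and 1698 in WT cells with dead cells. It read 491, 427 and 552 in untreated Clec9a gfp/gfp cells and 1751, 1909 and 1899 in those with dead cells. For Parp9 the genotypes overlapped under each treatment. Dtx3l read 1087, 1047 and 1063 in untreated WT cells and 3662, 3454 and 3334 in the WT group with dead cells. On the Clec9a gfp/gfp arrays Dtx3l read 1233, 1192 and 1189 untreated and 3590.1, 3757 and 3644 with dead cells. The untreated Dtx3l values of Clec9a gfp/gfp cells all lay above those of WT cells, and the values with dead cells overlapped. Without dead cells the genotypes stood apart, in either direction, for 11.3% of all rows. The log2 change of Parp9 was 1.84 ± 0.11 (SE, adjusted p = 9.32e-08 in limma) in WT and 1.89 ± 0.11 (7.57e-08) in Clec9a gfp/gfp cells. For Dtx3l it was 1.69 ± 0.07 (adjusted p = 1.68e-08) and 1.59 ± 0.07 (2.28e-08).

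Parp11, a mono-ADP-ribosyltransferase with a WWE domain, had the smallest rise of the interferon-inducible members. It read 317, 299 and 291 in untreated WT cells and 740.3, 608 and 718 in WT cells with dead cells. Clec9a gfp/gfp arrays read 308, 287 and 291 untreated and 581, 630.4 and 633 with dead cells. The values with dead cells lay above all untreated values, and the genotypes overlapped under each treatment. The ratio of mean intensities was 2.28 in WT (log2 change 1.14 ± 0.09 SE, adjusted p = 1.33e-06 in limma) and 2.08 in Clec9a gfp/gfp cells (1.02 ± 0.09, 3.07e-06). With quantile normalization the change of Parp11 in Clec9a gfp/gfp cells was 1.60.

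The row shared by Plec, which encodes the cytoskeletal linker plectin, and Parp10, a mono-ADP-ribosyltransferase, cannot be credited to either gene. It read 185, 178 and 182 in untreated WT cells and 787, 851 and 923 in WT cells with dead cells, a log2 change of 2.14 ± 0.09 (SE, adjusted p = 1.56e-08 in limma). For Clec9a gfp/gfp cells the change of this shared row was 1.90 ± 0.09 (adjusted p = 2.77e-08), from 186, 170 and 200 untreated to 699, 750 and 761 with dead cells. With dead cells every Clec9a gfp/gfp value lay below every WT value, as the genotypes stood apart for 8.65% of all rows in either direction. That difference was -0.21 ± 0.09 (SE, unadjusted p = 0.0444 and adjusted p = 0.870 in limma), which was not called.

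**Figure D2:**
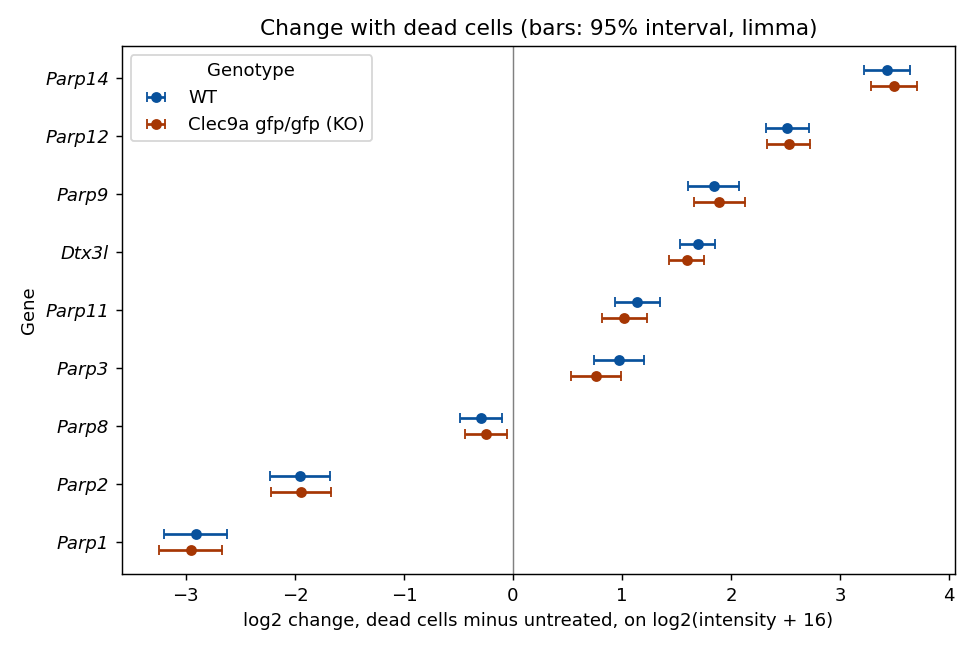
Change with dead cells (x axis, log2 units, dead cells minus untreated) of each member (y axis) in WT and Clec9a gfp/gfp (KO) cells, as points with 95% intervals from limma. The members run from Parp14 at 3.43 and 3.50 to Parp1 at -2.91 and -2.95, and Parp3 stands with the rising genes at 0.98 and 0.77.

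Parp1, the most abundant poly-ADP-ribose polymerase of most cells and the main sensor of DNA strand breaks among them, had the largest fall. Its intensity was 979.7, 1048 and 878 in untreated WT cells and 135, 123 and 90.5 in the WT group with dead cells. On the Clec9a gfp/gfp arrays it read 1072, 995 and 1117 untreated and 122, 115 and 132 with dead cells. The values with dead cells were far below every untreated value, and the genotypes overlapped under each treatment. Mean intensity was 8.35-fold lower in WT (log2 change -2.91 ± 0.13 SE, adjusted p = 2.04e-08 in limma) and 8.62-fold lower in Clec9a gfp/gfp cells (-2.95 ± 0.13, 1.87e-08). Of its measured neighbours on chromosome 1, Lin9 changed by -0.83 ± 0.17 and -0.68 ± 0.17, both called lower. With quantile normalization Lin9 was called in neither genotype. Gm5069, on the other side, was at -0.01 ± 0.18 and 0.14 ± 0.18 and was not called.

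Parp2, the closest relative of Parp1 in single-strand break repair, fell by less. It read 729, 740.0 and 745 in untreated WT cells and 183, 154 and 202 in WT cells with dead cells. Clec9a gfp/gfp arrays read 732, 698 and 726 untreated and 144, 183 and 203 with dead cells. Every value with dead cells lay far below every untreated value, in both genotypes. The log2 change was -1.95 ± 0.13 (SE, adjusted p = 2.03e-07 in limma) in WT and -1.94 ± 0.13 (2.05e-07) in Clec9a gfp/gfp cells. With quantile normalization the change of Parp2 in Clec9a gfp/gfp cells was -1.29. The measured genes on either side of Parp2 on chromosome 14 fell by similar amounts on the deposited scale. Ttc5 changed by -1.79 ± 0.26 (SE) in WT and -1.85 ± 0.26 in Clec9a gfp/gfp cells, and Osgep by -1.82 ± 0.11 and -2.06 ± 0.11.

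Parp3, known for a role in joining double-strand breaks, moved the other way from Parp1 and Parp2. Its untreated WT values were 297, 258 and 247 and its WT values with dead cells 578, 487 and 557. The Clec9a gfp/gfp values were 285, 244 and 265 untreated and 451, 488 and 443 with dead cells. Every value with dead cells lay above every untreated value. The log2 change of Parp3 was 0.98 ± 0.10 (SE, adjusted p = 1.10e-05 in limma) in WT and 0.77 ± 0.10 (7.60e-05) in Clec9a gfp/gfp cells. Rrp9, the next measured gene after Parp3 on chromosome 9 and a factor of ribosomal RNA processing, changed by -1.34 ± 0.08 and -1.40 ± 0.08 (SE). With quantile normalization Parp3 was at 1.53 and 1.39 and Rrp9 at -0.72 and -0.72. Abhd14a, the measured gene on the other side of Parp3, changed by -0.13 ± 0.15 in WT (not called) and -0.52 ± 0.15 in Clec9a gfp/gfp cells (called lower). With quantile normalization Abhd14a was called in neither genotype.

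Parp8, a mono-ADP-ribosyltransferase whose role is little known, stayed bright under all conditions. It read 3468, 3325 and 3216 in untreated WT cells and 2665, 2699.7 and 2808 in WT cells with dead cells. The Clec9a gfp/gfp values were 3049.6, 2819 and 3335 untreated and 2438, 2657 and 2631 with dead cells. The groups with dead cells were lower by a small margin. The untreated genotypes overlapped, and with dead cells every Clec9a gfp/gfp value lay just below every WT value (at most 2657 against at least 2665). The log2 change of Parp8 was -0.29 ± 0.09 (SE, adjusted p = 0.0171 in limma) in WT and -0.25 ± 0.09 (0.0337) in Clec9a gfp/gfp cells. A shift of all arrays to one median took it to -0.07 (adjusted p = 0.499) and -0.01 (0.904), and quantile normalization took the Clec9a gfp/gfp change to -0.15 (0.1303). The Parp8 call in WT cells was lost without WT untreated replicate 1 (adjusted p = 0.0628) and without WT dead cell replicate 1 (0.0507). Among Clec9a gfp/gfp arrays it was lost without untreated replicates 1 and 3 (0.0749 and 0.133) and without dead cell replicates 1, 2 and 3 (0.110, 0.0502 and 0.0514).

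The question of whether DNGR-1 bears on these genes was addressed by comparing genotypes under each treatment. No member was called between Clec9a gfp/gfp and WT cells in limma, 0 of 9 without and 0 of 9 with dead cells, where 0.0301% and 0.0043% of all rows were called. The 1 row called with dead cells was Clec9a itself, which was also among the 7 called without them. Without dead cells 1 member had an unadjusted p under 0.05, Dtx3l, with a difference of 0.17 ± 0.07 (SE, Clec9a gfp/gfp minus WT, unadjusted p = 0.0377 and adjusted p = 1.00 in limma), and its 3 Clec9a gfp/gfp values were all above the WT values. With dead cells 0 members had an unadjusted p under 0.05. The lowest was 0.0565 for Parp3, at a difference of -0.22 ± 0.10 (adjusted p = 0.891 in limma). The arrays of the 2 genotypes did not overlap for 1 of 9 members without dead cells (Dtx3l) and for 2 of 9 with them (Parp12 and Parp8). Such separation held for 11.3% and 8.65% of all rows. Over the 9 members the 95% intervals of the genotype difference ran from -0.32 to 0.42 without and from -0.45 to 0.38 with dead cells, so that each excluded a 2-fold difference. A p that misses the threshold does not show that the genotypes are alike, and the intervals give the sizes that remain possible.

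The difference between the genotypes' responses was tested as an interaction. None of the 9 members was called in limma, 0 had an unadjusted p under 0.05, and 0.0043% of all rows were called. Differences in response (Clec9a gfp/gfp minus WT) ran from -0.21 ± 0.15 (SE) for Parp3 to 0.07 ± 0.13 for Parp14. The 95% interval was -0.53 to 0.11 for Parp3, -0.23 to 0.36 for Parp14 and -0.45 to 0.37 for Parp1, and all 9 intervals lay within a 2-fold difference.

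**Figure D3:**
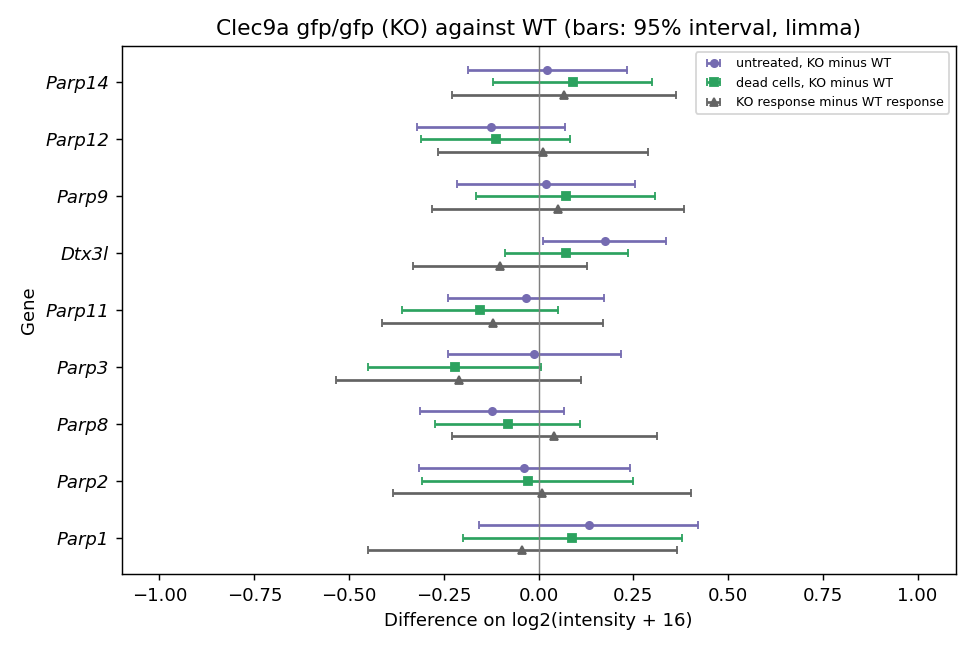
Differences between Clec9a gfp/gfp (KO) and WT cells (x axis, log2 units) for each member (y axis) without dead cells, with dead cells, and in the response to dead cells, as points with 95% intervals from limma. All intervals lie between -0.53 and 0.42, with Dtx3l at 0.17 without dead cells and Parp3 at -0.22 with them.

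Parp14, Dtx3l and Parp9 follow each other among the measured genes of chromosome 16 in the RefSeq order, and the annotated spans of Dtx3l and Parp9 overlap. Whether probes of one gene read the other was not tested. The rises of these neighbours differed in size, at 3.43 for Parp14 against 1.69 for Dtx3l and 1.84 for Parp9 in WT cells, with intervals of 3.22 to 3.64, 1.53 to 1.86 and 1.61 to 2.08. On the far side of Parp14, Hspbap1 changed by 0.49 ± 0.13 (SE, adjusted p = 0.00830 in limma) in WT and 0.31 ± 0.13 (0.0644) in Clec9a gfp/gfp cells. Hspbap1 was called higher in both genotypes with quantile normalization, at 0.95 (adjusted p = 6.02e-05 in limma) and 0.78 (0.000252). Shifting the arrays to one median gave 0.55 (0.00259) in Clec9a gfp/gfp cells. Next to Parp9, Kpna1, which encodes a nuclear import receptor, changed by -0.46 ± 0.11 (adjusted p = 0.00357) and -0.46 ± 0.11 (0.00377). With quantile normalization the change of Kpna1 was -0.02 in WT and 0.03 in Clec9a gfp/gfp cells, and neither was called. The shift to one median gave Kpna1 -0.25 (adjusted p = 0.0385 in limma) and -0.22 (0.0542).

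**Figure D4:**
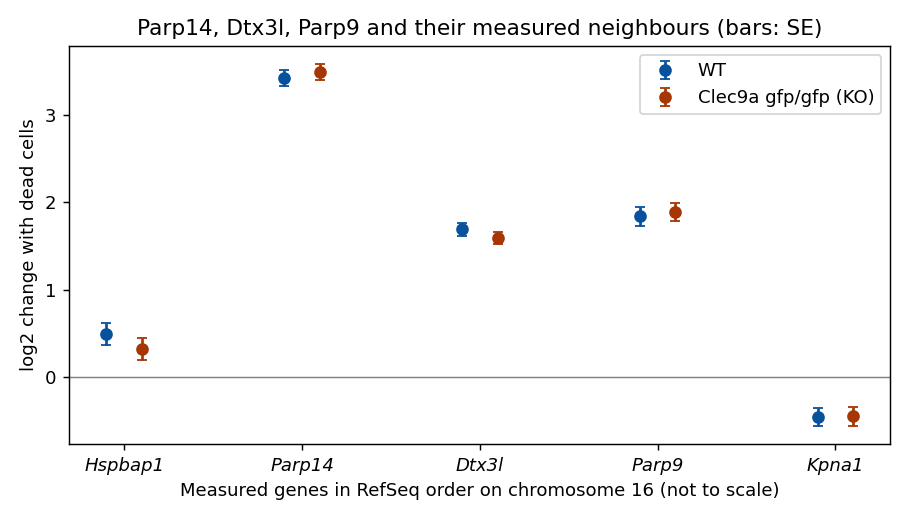
Change with dead cells (y axis, log2 units, points with SE) of Hspbap1, Parp14, Dtx3l, Parp9 and Kpna1 in their order on chromosome 16 (x axis, not to scale) in WT and Clec9a gfp/gfp (KO) cells. The middle genes lie between 1.59 and 3.50, and the flanking genes between -0.46 and 0.49. These are values on the deposited scale, and quantile normalization gave Hspbap1 0.95 and Kpna1 -0.02 in WT cells.

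The rest of the family gave 5 measured genes of 7, of which 2 rose and 1 fell in WT cells and 2 rose and 2 fell in Clec9a gfp/gfp cells. Zc3hav1, the antiviral zinc finger protein also called Parp13, went from 1070.4 to 2144 in WT cells (group means, log2 change 0.99 ± 0.09 SE) and by 0.96 ± 0.09 in Clec9a gfp/gfp cells. Tiparp, also called Parp7 and known as a target of the aryl hydrocarbon receptor, rose by 0.95 ± 0.11 and 1.13 ± 0.11. Both moved in the direction of the interferon-inducible members. Tnks, the telomere-associated tankyrase, fell by 0.81 (SE 0.11) and 0.88 (SE 0.11), and its other row gave -1.65 ± 0.11 and -1.71 ± 0.11. Parp6 was not called in WT cells (-0.17 ± 0.10) and fell in Clec9a gfp/gfp cells (-0.36 ± 0.10), but quantile normalization gave 0.46 and 0.31, both called higher, and the shift to one median gave 0.05 and -0.12, neither called. Parp16 was at -0.12 ± 0.16 and 0.24 ± 0.16 and was not called, but in Clec9a gfp/gfp cells it was called higher with quantile normalization (0.46, adjusted p = 0.0242 in limma) and with the shift to one median (0.47, 0.0168). With quantile normalization the changes of Tnks were -0.38 and -0.44, still called lower.

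Enzymes that remove ADP-ribose were measured for 4 of 7 listed genes, and 2 fell in WT and 3 in Clec9a gfp/gfp cells. Of all rows, 31.0% in WT and 32.1% in Clec9a gfp/gfp cells were called lower, and 4 genes are few to set beside that share. Parg, the main glycohydrolase of poly-ADP-ribose chains, went from 622 to 276 in WT cells (log2 change -1.13 ± 0.10 SE) and changed by -1.20 ± 0.10 in Clec9a gfp/gfp cells. Oard1, which removes terminal ADP-ribose, changed by -0.96 ± 0.11 and -0.83 ± 0.11. With quantile normalization Parg was at -0.49 and -0.50 and Oard1 at -0.55 and -0.33, all still called lower. Macrod1, a hydrolase that removes single ADP-ribose units, was the third call in Clec9a gfp/gfp cells (-0.33 ± 0.11, adjusted p = 0.0273 in limma), and that call was lost with quantile normalization (0.05, 0.763) and with the shift to one median (-0.09, 0.521). Among 3 other Deltex ligases, Dtx4 fell by 1.25 (SE 0.11) in WT and 1.49 (SE 0.11) in Clec9a gfp/gfp cells. Dtx1 changed by 0.25 ± 0.10 (not called) and 0.30 ± 0.10 (called), and Dtx2 by -0.05 ± 0.12 and -0.20 ± 0.12 (neither called). With quantile normalization both Dtx1 and Dtx2 were called higher in WT cells, at 0.81 and 0.56, and Dtx4 was at -0.59 in WT and -0.80 in Clec9a gfp/gfp cells, still called lower.

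Partners of Parp1 and Parp2 in repair mostly fell with them. Of 9 measured genes of base excision and single-strand break repair 7 fell and 0 rose in WT cells, and 7 fell and 1 rose in Clec9a gfp/gfp cells. Their median change was -1.24 and -1.43. Of all rows, 31.0% in WT and 32.1% in Clec9a gfp/gfp cells were called lower. Apex1, the main abasic site endonuclease, changed by -2.40 ± 0.13 (SE) in WT and -2.61 ± 0.13 in Clec9a gfp/gfp cells, and Xrcc1, the scaffold that binds poly-ADP-ribose, by -1.57 ± 0.10 and -1.52 ± 0.10. Polb, the polymerase of this pathway, changed by 0.23 ± 0.12 in WT (not called) and rose by 0.43 ± 0.12 in Clec9a gfp/gfp cells. In WT cells Polb was called higher with quantile normalization (0.82, adjusted p = 4.10e-05 in limma) and with the shift to one median (0.45, 0.00676). Of 6 measured genes of non-homologous end joining, the pathway in which Parp3 is known to act, 5 fell in each genotype. Xrcc6, which encodes the Ku70 subunit, changed by -2.74 ± 0.15 and -2.86 ± 0.15, and Prkdc, the catalytic subunit of the DNA-dependent protein kinase, by -2.04 ± 0.14 and -2.05 ± 0.14. Aptx and Paxx lost their calls in both genotypes with quantile normalization and with the shift to one median, and Ogg1 lost its call in Clec9a gfp/gfp cells with quantile normalization (-0.38, adjusted p = 0.0569 in limma). Quantile normalization thus left 6 falls and 1 rise in WT and 5 falls and 1 rise in Clec9a gfp/gfp cells for base excision and single-strand break repair, and 4 falls in each genotype for end joining. It took the change of Xrcc1 in Clec9a gfp/gfp cells to -0.92.

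**Figure D5:**
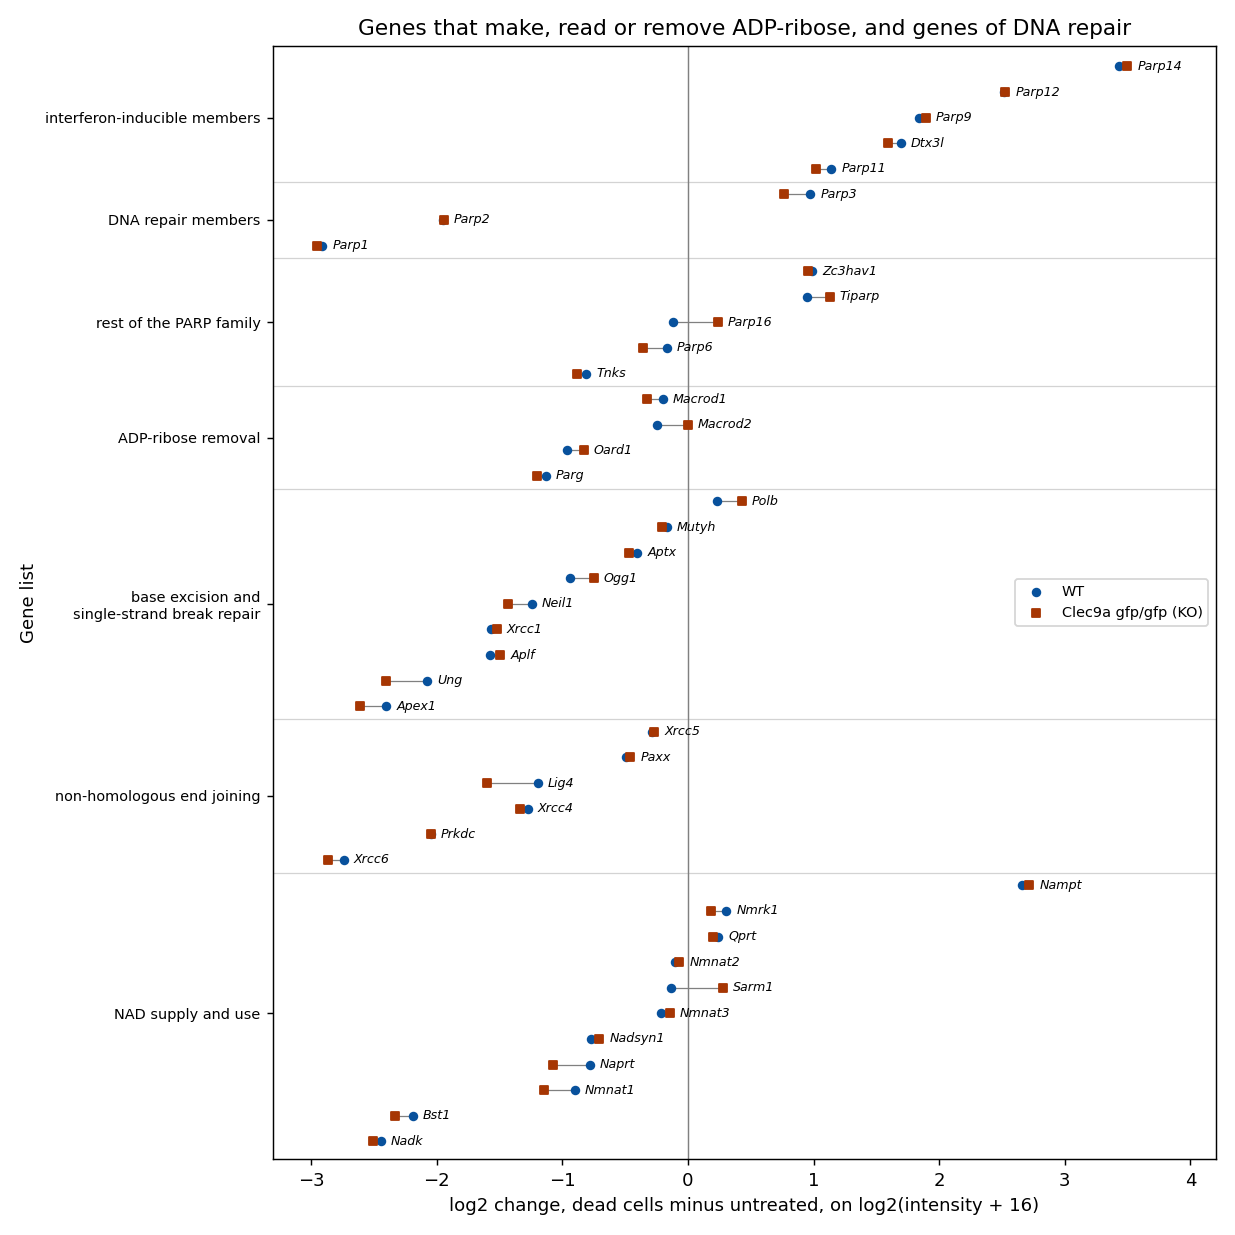
Change with dead cells (x axis, log2 units) of each measured gene of 7 lists (y axis) in WT and Clec9a gfp/gfp (KO) cells, joined by a line. Interferon-inducible members lie between 1.02 and 3.50, Parp1 and Parp2 lie among the falling repair genes, and Parp3 lies apart from them at 0.98 and 0.77.

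Genes that supply or consume NAD+, the substrate of the family, did not share one direction. Of 11 measured genes 1 rose and 5 fell in each genotype, whereas the shift to one median gave 3 rises in WT and 4 in Clec9a gfp/gfp cells beside 5 falls. Nampt, the rate-limiting enzyme of NAD+ salvage, went from 1010.0 to 6456 in WT and from 950.2 to 6284 in Clec9a gfp/gfp cells, log2 changes of 2.66 ± 0.12 and 2.72 ± 0.12 (SE). Nmnat1, the nuclear enzyme of the next step, changed by -0.90 ± 0.14 and -1.14 ± 0.14. Nadk, which turns NAD+ into NADP+, changed by -2.44 ± 0.10 and -2.51 ± 0.10, and Bst1, an NAD+ glycohydrolase of the cell surface, by -2.19 ± 0.16 and -2.33 ± 0.16.

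Interferon signalling genes moved with the rising members. Of 12 measured genes of interferon receptors and signalling 9 rose and 2 fell in each genotype. The share of all rows called higher was 14.5% in WT and 16.6% in Clec9a gfp/gfp cells. Irf7 rose by 4.54 ± 0.10 in WT and 4.59 ± 0.10 (SE) in Clec9a gfp/gfp cells, Stat2 by 2.60 ± 0.09 and 2.50 ± 0.09, and Irf1 by 2.60 ± 0.14 and 2.37 ± 0.14. Irf9 rose by 0.49 ± 0.11 and 0.55 ± 0.11, and by 0.84 in Clec9a gfp/gfp cells with quantile normalization. The receptor gene Ifngr1, which encodes the ligand-binding chain for interferon gamma, changed by -2.68 ± 0.11 and -2.56 ± 0.11, while Ifnar1 rose by 0.93 ± 0.09 and 0.79 ± 0.09. The other fall was Ifnar2, at -0.57 in WT (adjusted p = 0.000132 in limma) and -0.63 in Clec9a gfp/gfp cells (6.04e-05). With quantile normalization Ifnar2 was at -0.47 and -0.49, still called lower. Of 5 measured interferon genes 2 were called higher in WT and 1 in Clec9a gfp/gfp cells. Ifnb1, a type I interferon gene, had a mean of 80.9 in untreated WT cells, below the medians of those arrays. With dead cells its WT mean was 144, above the array medians. Its change was 0.70 ± 0.20 (SE, adjusted p = 0.0159 in limma) in WT and 0.54 ± 0.20 (0.0490) in Clec9a gfp/gfp cells. Quantile normalization gave Ifnb1 1.06 and 0.89. All 19 measured genes of the interferon-stimulated list rose in each genotype, with a median of 3.81 and 3.91, from Trim30a at 1.08 and 1.12 to Rsad2 at 7.08 and 7.24. The rise of Parp14 was thus below that list's median, and those of Parp12, Parp9, Dtx3l and Parp11 were well below it.

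Other features of the arrays moved with the same comparison, and their part in these results was not tested. Over all rows, 14.5% were called higher and 31.0% lower in WT cells, and 16.6% and 32.1% in Clec9a gfp/gfp cells. All 20 measured S phase genes fell in WT cells and 19 in Clec9a gfp/gfp cells, with medians of -2.48 and -2.32. Their summed intensity was 15793 to 18291 in untreated WT cells and 2885 to 3179 with dead cells, and 16096 to 16555 and 2655 to 3137 in Clec9a gfp/gfp cells. All 12 measured monocyte and macrophage markers fell in both genotypes, with a summed intensity of 16244 to 23786 untreated and 3775 to 4389 with dead cells in WT, and of 18517 to 20381 and 3554 to 4044 in Clec9a gfp/gfp cells. None of these 12 was below 16 on every array. Of 8 stromal markers 7 fell in both genotypes, from summed intensities of 6710 to 8164 untreated to 1126 to 1899 with dead cells in WT, and from 6148 to 9289 to 1172 to 1527 in Clec9a gfp/gfp cells. Of 7 plasmacytoid dendritic cell markers 3 rose and 1 fell in WT cells, and 3 rose and 2 fell in Clec9a gfp/gfp cells, so they did not share one direction. The sum of all 7 was 2067 to 2358 untreated and 3924 to 4132 with dead cells in WT, and 2278 to 2674 and 4184 to 4242 in Clec9a gfp/gfp cells. These 7 include Bst2, which is also on a list that is not of a cell type and rose by 1.37 and 1.34. Mast cell and basophil markers fell for 5 of 6 genes in WT and 4 of 6 in Clec9a gfp/gfp cells, with sums of 848 to 1847 untreated and 89.4 to 169.7 with dead cells in WT, and of 1156 to 1831 and 136 to 199 in Clec9a gfp/gfp cells. Of 7 neutrophil markers 3 fell in each genotype, and their sum was 7799.7 to 13312 untreated and 592 to 761 with dead cells in WT. On untreated Clec9a gfp/gfp arrays the neutrophil sum ran from 1047 to 20159, so that these arrays stood far apart from each other in it, against 784 to 871 with dead cells. The 8 members other than Parp8 kept their calls with each untreated Clec9a gfp/gfp array left out. Of 9 cDC1 markers 7 fell in WT and 6 in Clec9a gfp/gfp cells, and 0 rose, at summed intensities of 48206 to 50950.2 and 22418 to 23941 in WT and of 43365 to 48353 and 21315 to 21530.1 in Clec9a gfp/gfp cells. Of 9 reference genes 1 rose and 5 fell in WT cells, with a sum of 43059 to 45439 untreated and 42185 to 44031 with dead cells, which overlap. In Clec9a gfp/gfp cells 1 rose and 6 fell, and the sums of 44365 to 45453 untreated and 40261 to 42539 with dead cells did not overlap. Such bulk values cannot tell fewer cells of a type from less RNA per cell.

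The genes whose course over the 12 arrays was most like that of a member were found by the root mean square difference of log2 values after centring each gene on its own mean. Nearest to Parp9 were Ascc3 (0.0557), Mapk6 (0.0710) and Rel (0.0756). Parp14 was nearest to Stat5a (0.138), Map3k14 (0.157) and Dll1 (0.170), Dtx3l to Stat3 (0.0624), Cpeb4 (0.0627) and Ppa1 (0.0672), and Parp1 to Ide (0.0841), Idh3a (0.0871) and Polr1e (0.0933). The arrays differ chiefly by treatment, so that likeness here describes mainly a change of similar size. Parp9 and Dtx3l were not among each other's 3 nearest genes.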

How the data were processed

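Affymetrix whole-transcript arrays were measured for 12 samples, 1 array each. Each deposited value is an intensity on a linear scale, as the values themselves show, with 23238 rows per array. Ribosomal RNA reduction and biotin labelling by a sense-target protocol are per the labels' protocols, and the build mm8 is per the submitters' processing notes. How the authors computed and normalized these deposited intensities is not given in the sources used here.

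Row symbols came from a platform table, updated through gene IDs to RefSeq GRCm38.p6 (14884 of 14939 single-symbol rows matched), an assembly that also gave the order of genes and the overlap of their spans, and from which only the promoter windows' coordinates are printed. Intensities were converted to log2(value + 16), which understates changes of dim rows. The pseudocount came from earlier work on these data, where it was picked with the values in view. All arrays entered 1 model with a mean per group (limma 3.58.1, R 4.3.3, lmFit and eBayes, two-sided), tested on simulated data, with Benjamini-Hochberg adjustment over all rows. Precision is limited by the number of arrays, which have no read depth. Members and lists were chosen with earlier results of these data known. The text names all members, listed genes and Clec9a, the 3 genes nearest to each of Parp9, Parp14, Dtx3l and Parp1, and measured chromosomal neighbours of members, a set chosen after the members' values were seen.

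Alternatives were quantile normalization, a shift to one median, pseudocounts of 1 and 64, plain log2, trended and robust eBayes, a single row per gene, leaving out the dimmest 25% of rows, fits on only the arrays compared, the replicate number as a block, and each array left out. The first 2 were also run for the related lists and neighbours, an addition made after seeing the data. No member had a further single-symbol row to compare. Batches could not be tested from the sources used here.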

Additional observations from a re-analysis of the deposited data

How the results depend on the processing

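The 8 members other than Parp8 kept direction and call in all 528 checks of the 3 responses (WT, Clec9a gfp/gfp, averaged; 22 alternatives each), with adjusted p at most 0.000936. These checks are not independent, and some could not change a direction. Leaving out an array of the other genotype leaves a WT or Clec9a gfp/gfp change as it was and alters only its p. The averaged response is the mean of the other responses. The sizes of these 8 members' changes moved by over 1.5 times only with quantile normalization, for Parp3 (WT 0.98 to 1.53, Clec9a gfp/gfp 0.77 to 1.39, averaged 0.87 to 1.46), Parp11 (Clec9a gfp/gfp 1.02 to 1.60, averaged 1.08 to 1.63) and Parp2 (Clec9a gfp/gfp -1.94 to -1.29). Parp8 kept its call in 53 of 66, and its losses not given in the report were with only the arrays compared in Clec9a gfp/gfp cells (adjusted p = 0.1001), with the replicate block and, for the averaged response, with a shift to one median (-0.04, adjusted p = 0.548). No member was called between genotypes or in the difference in response in 594 checks (lowest adjusted p = 0.618). Replicate numbers are shared by the groups. In deviations from the group means, 2 of 18 same-numbered pairs correlated above 0.1 (r = -0.16 to 0.13). Of pairs with different numbers, 4 of 36 did (r = -0.14 to 0.18). By these correlations 0 arrays were closest to their own number throughout. Whether same-numbered arrays share a culture or an animal was not tested. With the replicate block, Parp8 in Clec9a gfp/gfp cells lost its call (adjusted p = 0.0549), and the genotype calls over all rows were 3 without dead cells and 0 for the difference in response. On the deposited scale those comparisons called 7 rows without dead cells, 1 with dead cells and 1 for the difference. Without dead cells the count was 12 with a pseudocount of 64, 13 with 1 row per gene, 12 with trended and robust eBayes, 2 with only the arrays compared and 2 to 9 with an array left out. With dead cells it was 3 with quantile normalization or a shift to one median, 2 and 5 with pseudocounts of 1 and 64, 0 with plain log2, 5 without the dimmest rows or with 1 row per gene, 4 with trended and robust eBayes and 1 to 3 with an array left out. For the difference it was 0 and 2 with pseudocounts of 1 and 64, 2 with plain log2 or trended and robust eBayes and 0 to 2 with an array left out. The averaged response called 5128 rows higher and 8029 lower, while quantile normalization gave 7971 and 6256 and the shift to one median 9250 and 6828. This shift gave 6969 and 6264 in WT and 7454 and 6421 in Clec9a gfp/gfp cells, and moved the median of all rows in WT cells from -0.04 to 0.17. The cause of these changes was not tested.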

Other observations

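Beside Parp12 on chromosome 6, the row of 4930599N23Rik, singled out after its values were seen, had a mean intensity of 5.23 in untreated and 186 in dead cell-exposed WT cells, and of 2.74 and 202 in Clec9a gfp/gfp cells. On the log2(intensity + 16) scale it rose by 3.27 ± 0.17 (SE, adjusted p = 4.88e-08 in limma) and 3.55 ± 0.17, and the untreated values lie below the pseudocount, so these changes understate the ratio. Tbxas1, the thromboxane synthase gene on the other side of Parp12, changed by -2.37 ± 0.09 and -2.41 ± 0.09.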
